A study of Mus musculus with 36 samples.

Results

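The acute phase and secretory host defense genes described here are Lcn2, Saa3, Hp, Ltf, Scgb1a1, Scgb3a1, Scgb3a2, Bpifa1, Bpifb1 and Reg3g, which are 10 of the 18116 genes in the female and 10 of the 18291 genes in the male count table. Each of the 10 is listed in both tables. They and the gene lists below were chosen by gene symbol with earlier results of these data known. Their counts are set beside the share of all genes as a description. RNA of the lung was sequenced from 36 wild-type C57BL/6 mice, 8 weeks old at the start, in 6 groups of 3 females and 3 males. The control mice received saline, and the other groups received MC252 oil (crude oil of the Macondo well), the oil dispersant Corexit 9500, the dispersant Corexit 9527, or oil together with either dispersant (9500+oil and 9527+oil), each as an accommodated fraction at a concentration of 0.1. Each mouse was given 50 µL into the airways at day 0, day 7 and day 13, and the lung was taken at day 14, the day after the third dose. No allele, transgene or other treatment was shared by the groups. Total counts ran from 17501180 to 30011557 per mouse. All 10 alveolar type 2 markers and all 8 alveolar type 1 markers of the lists used here were listed in both tables, with summed levels of at least 12170 and 4483 CPM (counts in proportion to the scaled library size) in every mouse. Mitochondrial genes took 20.67% to 45.09% of the counts in 4 female libraries (saline mouse 3, oil mouse 6, Corexit 9527 mouse 11 and 9500+oil mouse 14) and 5.27% to 11.34% in all others. A fold change without these 4 libraries is therefore also given for female mice and for both sexes together where its unadjusted p was under 0.05 or its size at least 1. The sexes were counted in separate tables. Whether they were dosed or sequenced together is not given in the sources used here. If they were not, a difference between the sexes cannot be told apart from one between runs.

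Airway and alveolar surfaces are coated with proteins that limit microbes and irritants. Club cells of the conducting airways secrete secretoglobins (Scgb1a1, Scgb3a1 and Scgb3a2) as their main products, and secretory cells of the upper and proximal airways release the BPI-fold proteins Bpifa1 (SPLUNC1) and Bpifb1 (LPLUNC1). Acute phase genes such as Lcn2, Saa3 and Hp are induced in many tissues by interleukin-1, interleukin-6, interleukin-17 and interleukin-22 through NF-kappaB, STAT3 and the C/EBP factors.

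In male mice Lcn2, which encodes the siderophore-binding protein lipocalin 2, rose with Corexit 9527 by 1.31 ± 0.17 (SE) on the log2 scale, from 138 ± 12.1 CPM (SD, n = 3) to 342 ± 84.3 CPM (SD, n = 3), and this was the 1 call among the 10 genes (adjusted p = 0.0468 in edgeR's quasi-likelihood test). The call was lost in 4 of the 6 fits that left out 1 mouse, with an adjusted p of up to 0.214. The largest differences from saline in male mice were with oil, where Lcn2 stood at 448 ± 115 CPM (SD, n = 3), Saa3 (serum amyloid A3) at 32.2 ± 13.4 CPM (SD, n = 3) against 2.63 ± 2.33 CPM (SD, n = 3), and Bpifa1 at 87.3 ± 18.9 CPM (SD, n = 3) against 275 ± 134 CPM (SD, n = 3). In each of these 3 genes the oil and saline males did not overlap. With edgeR's main settings none of them was called (adjusted p under 0.05). Some other edgeR settings called 1 of the 10 genes with oil, and DESeq2's Wald test called all 3. In female mice Lcn2 and Saa3 were instead lower than in saline mice with 9500+oil and with 9527+oil, at an unadjusted p under 0.05 only. No male comparison gave Hp, Ltf, Scgb3a2 or Reg3g an unadjusted p under 0.05. In RNA of whole lung, fewer cells of a type and less RNA per cell cannot be told apart, which holds for every value here.

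In the GRCm38 build Lcn2 (ENSMUSG00000026822) lies on the minus strand at chr2:32384633-32388252, Saa3 (ENSMUSG00000040026) on the minus strand at chr7:46711998-46715700, Ltf (ENSMUSG00000032496) on the plus strand at chr9:111019271-111042767 and Bpifa1 (ENSMUSG00000027483) on the plus strand at chr2:154142880-154149219. Bpifb1 (ENSMUSG00000027485) follows Bpifa1 on the same strand at chr2:154190818-154220369. All 10 genes are protein-coding in GENCODE M21. RefSeq promoters (GRCm38.p6, 250 bases before to 50 after the start) were at hand for 7 of them, namely Lcn2, Saa3, Ltf, Scgb3a1, Bpifa1, Bpifb1 and Reg3g. Each was searched on both strands for the C/EBP motif TTGCNNAA, the NF-kappaB motif, the STAT motif TTCNNNGAA, the FOXA motif TGTTTAC and the NKX2-1 motif CTCAAG. The part of the window before the start is printed for Lcn2, Saa3 and Bpifa1, the genes that differed most from saline with oil in male mice, and for Ltf, which holds the same motif as Lcn2 and Saa3. They are given 5′ to 3′ on the strand of the gene, with the C/EBP match (Lcn2, Saa3, Ltf) or the NKX2-1 match (Bpifa1) in capitals, and stop short of the start by 58 bases in Lcn2, 24 in Saa3 and 21 in Ltf, which GENCODE holds as 5′ UTR of a longer transcript.
Lcn2, chr2:32387798-32387989, minus strand: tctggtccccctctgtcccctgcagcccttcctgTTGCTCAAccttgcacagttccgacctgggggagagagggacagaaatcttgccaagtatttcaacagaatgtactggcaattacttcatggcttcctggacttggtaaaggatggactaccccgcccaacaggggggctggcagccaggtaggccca
Saa3, chr7:46715701-46715926, minus strand: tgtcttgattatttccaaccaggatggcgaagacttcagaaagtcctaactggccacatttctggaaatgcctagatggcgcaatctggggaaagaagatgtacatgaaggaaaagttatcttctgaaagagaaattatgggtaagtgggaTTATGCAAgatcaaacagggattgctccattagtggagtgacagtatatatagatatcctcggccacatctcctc
Ltf, chr9:111019042-111019270, plus strand: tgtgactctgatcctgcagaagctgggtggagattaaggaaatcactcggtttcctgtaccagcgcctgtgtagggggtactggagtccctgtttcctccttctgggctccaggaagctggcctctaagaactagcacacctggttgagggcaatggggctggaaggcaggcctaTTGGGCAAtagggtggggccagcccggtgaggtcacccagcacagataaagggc
Bpifa1, chr2:154142630-154142879, plus strand: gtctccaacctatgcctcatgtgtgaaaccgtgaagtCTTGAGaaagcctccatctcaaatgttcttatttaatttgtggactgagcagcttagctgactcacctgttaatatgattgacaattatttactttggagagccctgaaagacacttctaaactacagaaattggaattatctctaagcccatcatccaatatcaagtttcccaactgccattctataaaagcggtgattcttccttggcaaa

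The C/EBP letters were found once each in Lcn2 (first base at -216 from the start), Saa3 (-99) and Ltf (-75), and in 10.8% of all 32851 RefSeq promoters of that length. The NKX2-1 letters were found in Scgb3a1, in Reg3g and at 2 places in Bpifa1, one of them 36 bases after the start, against 15.9% of all promoters. The STAT letters were found in Scgb3a1, against 8.3%. The NF-kappaB and FOXA letters, which 1.2% and 3.65% of promoters hold, were in none of the 7 windows, and no 2 matches overlapped. The start of Lcn2 in RefSeq lies 513 bases inside the gene start of GENCODE, and those of the other 6 lie within 24 bases of it. A match is a string of letters and was not tested as a binding site.

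Levels per kilobase of exon in saline mice placed the genes far apart. The length was that of all annotated exons joined, 2623 bases over 6 transcripts for Lcn2 but 476 bases in 1 for Scgb1a1. Levels of genes with several transcripts can therefore be too low. Scgb1a1 had 38400 ± 5420 CPM per kb (SD, n = 3) in male mice, followed by Scgb3a2 with 447 ± 62.4, Hp with 425 ± 29.4 and Scgb3a1 with 260 ± 25.9 CPM per kb. Scgb3a2 and Hp overlapped between mice and have no order. Bpifa1 (178 ± 86.8 CPM per kb), Lcn2 (52.6 ± 4.6), Bpifb1 (38.2 ± 5.12), Reg3g (16.7 ± 5.35), Ltf (8.95 ± 3.77) and Saa3 (1.01 ± 0.893) followed. Scgb3a1 overlapped with Bpifa1, and Reg3g with Ltf. The female saline mice had the same order of means but a wider spread, with 82.3 ± 28.1 CPM per kb for Lcn2 and 8.17 ± 9.45 for Saa3 (SD, n = 3).

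Across the 5 comparisons with saline in male mice, the 10 genes were tested among 14889 to 15116 genes that passed the filter on low counts, and all 10 passed in every comparison. With Corexit 9527, 1 of the 10 (Lcn2) had an adjusted p under 0.05, against 0.114% of all genes tested. An unadjusted p under 0.05 was found for 6 of the 10, against 13.7%. Lcn2 and Bpifb1 were higher in every Corexit 9527 mouse than in every saline mouse, against 10.7% of genes, and Scgb1a1 and Scgb3a1 were lower in every mouse, against 9.48%. With oil, 0 of the 10 were called, against 0.00671% of genes, and 3 had an unadjusted p under 0.05, against 8.21%. Lcn2 and Saa3 were above and Bpifa1 below the saline mice in every oil male, against 7.42% and 5.38% of genes. The counts of the 10 genes with an unadjusted p under 0.05 were 2 with Corexit 9500 (6.35% of genes), 2 with 9500+oil (9.22%) and 2 with 9527+oil (5.54%). None of the 10 was called in these 3 comparisons, where 0.00662%, 0% and 0.00669% of genes were. DESeq2's Wald test called 3 of the 10 with oil (Lcn2, Saa3 and Bpifa1), 3 with Corexit 9527 (Lcn2, Scgb3a1 and Bpifb1) and 1 with 9527+oil (Lcn2).

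In female mice none of the 10 genes had an adjusted p under 0.05 in any of the 5 comparisons, in which 0% of genes did, and DESeq2's Wald test called none of the 10 either. The counts with an unadjusted p under 0.05 were 0 for oil (0.108% of genes), 0 for Corexit 9500 (0.364%), 0 for Corexit 9527 (0.267%), 2 for 9500+oil (0.155%) and 3 for 9527+oil (1.1%). Lcn2 and Saa3 were lower in every treated mouse than in every saline mouse with 9500+oil (0.737% of genes) and with 9527+oil (7.2%). Without the 4 libraries with high mitochondrial shares, Saa3 had an unadjusted p under 0.05 with oil. Bpifa1 and Scgb3a1 then had one with Corexit 9500 and with Corexit 9527, Ltf with the first and Scgb3a2 with the second. Over all genes the count went from 16 to 144 with oil, 54 to 248 with Corexit 9500 and 40 to 762 with Corexit 9527. It went from 23 to 185 with 9500+oil and 164 to 1865 with 9527+oil. The 5 comparisons of a sex share their 3 saline mice, so they are not independent of each other.

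**Figure D1:**
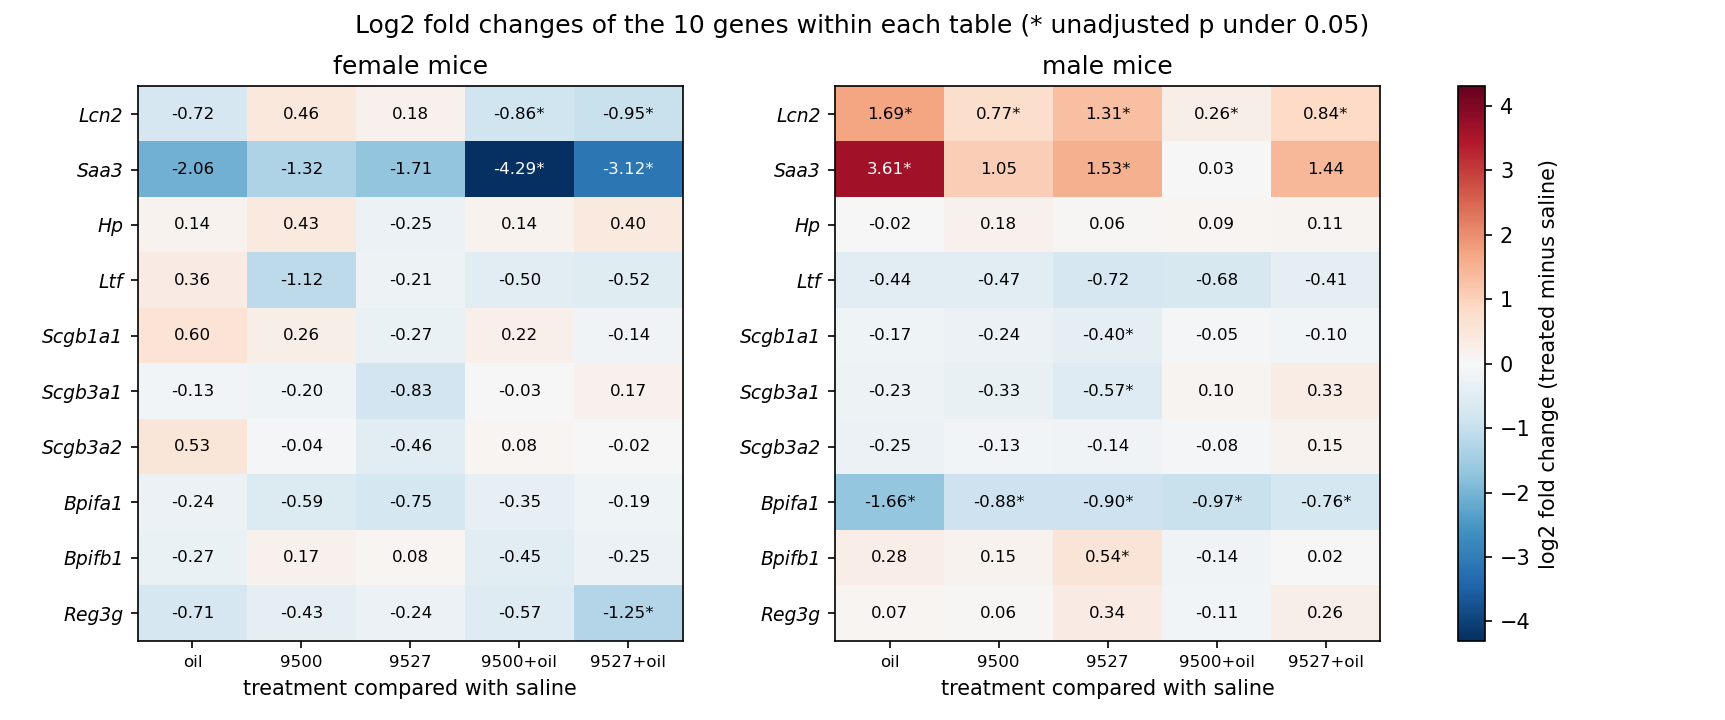
Log2 fold changes (treated minus saline) of the 10 genes in female (left) and male mice (right), with treatments on the x axis, genes on the y axis and a colour scale from blue (lower than saline) to red (higher); an asterisk marks an unadjusted p under 0.05 in edgeR's quasi-likelihood test. In male mice Lcn2 is higher and Bpifa1 lower than saline under all 5 treatments, and in female mice Saa3 is lower under all 5, although its value with Corexit 9500 was 0.24 without saline mouse 2.

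Lcn2 in male saline mice stood at 139, 149.8 and 126 CPM. Oil mice had 480.0, 319.5 and 543 CPM, Corexit 9527 mice 265, 432 and 329 CPM, and 9527+oil mice 167, 320.3 and 257 CPM, and in each of these 3 groups every mouse was above every saline mouse (with 9527+oil, so were 5.92% of genes). Corexit 9500 mice had 253, 310.1 and 146 CPM and 9500+oil mice 172, 149 and 174 CPM, and both groups overlapped with saline. The log2 fold change was 1.69 ± 0.18 (SE), unadjusted p = 1.1e-05, adjusted p = 0.0823 with oil. It was 1.31 ± 0.17 (SE), unadjusted p = 4.45e-05, adjusted p = 0.0468 with Corexit 9527, 0.84 ± 0.21 (SE), unadjusted p = 0.00356, adjusted p = 0.885 with 9527+oil and 0.77 ± 0.23 (SE), unadjusted p = 0.00904, adjusted p = 0.755 with Corexit 9500. With 9500+oil it was 0.26 ± 0.10 (SE), unadjusted p = 0.0334, adjusted p = 0.524, and all 3 mice of that group lay below all 3 oil mice, a difference that was not tested. A test for any difference among the 6 male groups gave Lcn2 an unadjusted p of 8.29e-05 and an adjusted p of 0.0515, where 0.135% of genes were called, and the same test over the female groups called none of the 10, against 0.0129% of genes. The call with Corexit 9527 was lost without any 1 of the 3 saline mice or without Corexit 9527 mouse 11 (adjusted p from 0.051 to 0.214), while the fold change stayed between 1.11 and 1.46. Lcn2 with oil passed the threshold without oil mouse 5 (adjusted p = 0.00521), and Lcn2 with 9527+oil without 9527+oil mouse 16 (adjusted p = 0.0201).

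In female mice Lcn2 was spread more widely, with 159, 299 and 190.3 CPM in the saline mice. It stood at 141, 120.0 and 106 CPM with 9500+oil and at 103, 103 and 130.1 CPM with 9527+oil, and neither group overlapped with saline. Oil mice had 112, 158 and 136 CPM, also all below saline (as were 1.02% of genes) but by as little as 158.2 against 158.6 CPM, with a log2 fold change of -0.72 at an unadjusted p of 0.0817. Corexit 9500 mice had 446, 110.0 and 337 CPM and Corexit 9527 mice had 348, 174 and 217 CPM. The log2 fold change was -0.86 ± 0.36 (SE), unadjusted p = 0.0485, adjusted p = 1 with 9500+oil and -0.95 ± 0.31 (SE), unadjusted p = 0.0216, adjusted p = 0.914 with 9527+oil. Without the libraries with high mitochondrial shares these values were -0.88 ± 0.32 (SE), unadjusted p = 0.0284, adjusted p = 1 and -1.03 ± 0.25 (SE), unadjusted p = 0.00347, adjusted p = 0.319. With offsets for the GC content of each gene they were larger in size, at -1.23 and -1.65. Saline mouse 2 was the highest of the saline females, and without it the fold change was -0.58 with 9500+oil and -0.65 with 9527+oil.

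Saa3, a serum amyloid A made outside the liver by epithelial cells and macrophages, had the lowest level per kb in saline mice among the 10 genes, with 9 to 1599 counts in a female and 17 to 1180 in a male library. Male saline mice had 5.27, 0.892 and 1.72 CPM and male oil mice 38.7, 16.8 and 41.2 CPM, with no overlap. The log2 fold change with oil was 3.61 ± 0.57 (SE), unadjusted p = 0.000189, adjusted p = 0.169. Corexit 9527 males had 7.91, 11.1 and 3.88 CPM, of which mouse 12 lay within the saline range, and the log2 fold change was 1.53 ± 0.61 (SE), unadjusted p = 0.0347, adjusted p = 0.315. The log2 fold change was 1.05 ± 0.66 (SE), unadjusted p = 0.148, adjusted p = 0.822 with Corexit 9500 (3.79, 10.0 and 2.58 CPM) and 1.44 ± 0.74 (SE), unadjusted p = 0.0843, adjusted p = 0.891 with 9527+oil (1.83, 9.18 and 10.5 CPM). With 9500+oil, Saa3 stood at 1.77, 2.14 and 4.1 CPM, within the range of the saline mice. Saline mouse 1 was the highest of the saline males, and without it the fold changes were larger, at 4.61 for oil, 2.53 for Corexit 9527, 2.44 for 9527+oil and 2.05 for Corexit 9500. Without Corexit 9500 mouse 8, the fold change with Corexit 9500 was 0.28.

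Among female saline mice Saa3 was spread widely, at 10.2, 49.5 and 4.1 CPM. Female mice treated with 9500+oil had 1.71, 0.595 and 0.949 CPM and those treated with 9527+oil 1.2, 2.14 and 4.01 CPM, all below the saline mice. The log2 fold change was -4.29 ± 1.07 (SE), unadjusted p = 0.00597, adjusted p = 1 with 9500+oil and -3.12 ± 1.04 (SE), unadjusted p = 0.0243, adjusted p = 0.914 with 9527+oil, and -4.47 ± 0.79 (SE), unadjusted p = 0.00094, adjusted p = 1 and -3.62 ± 0.67 (SE), unadjusted p = 0.000743, adjusted p = 0.314 without the libraries with high mitochondrial shares. With oil alone (4.17, 7.97 and 3.29 CPM) it was -2.06 ± 0.95 (SE), unadjusted p = 0.0702, adjusted p = 1, with Corexit 9500 (13.6, 1.15 and 10.8 CPM) -1.32 ± 1.14 (SE), unadjusted p = 0.287, adjusted p = 1, and with Corexit 9527 (15.5, 1.38 and 2.54 CPM) -1.71 ± 1.25 (SE), unadjusted p = 0.218, adjusted p = 1. Without the libraries with high mitochondrial shares the value with oil was -2.30 ± 0.70 (SE), unadjusted p = 0.0134, adjusted p = 1, that with Corexit 9500 -1.82 ± 1.01 (SE), unadjusted p = 0.122, adjusted p = 1 and that with Corexit 9527 -1.72 ± 0.93 (SE), unadjusted p = 0.109, adjusted p = 0.977. The values with all mice rest in part on saline mouse 2. Without it they were -2.73 with 9500+oil, -1.55 with 9527+oil, -0.51 with oil, -0.14 with Corexit 9527 and 0.24 with Corexit 9500. Without Corexit 9527 mouse 10 the value with Corexit 9527 went the other way, to -3.43. The related gene Saa1, whose reads could be split with Saa3 in the counting, reached at most 1.57 CPM in any mouse.

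**Figure D2:**
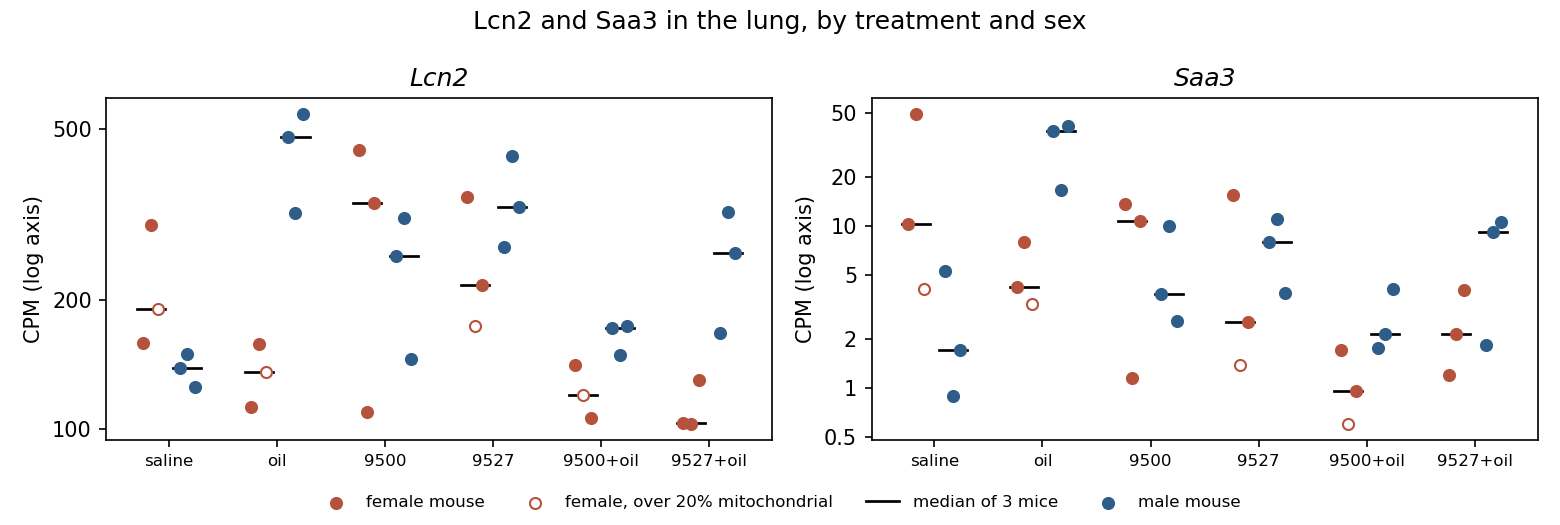
Lcn2 (left) and Saa3 (right) in CPM on a log axis for each mouse, by treatment; red points are female and blue points male mice, open points the female libraries with over 20% mitochondrial counts, and black lines the median of 3 mice. The 3 male oil mice lie above all male saline mice in both genes, while the female 9500+oil and 9527+oil mice lie below the female saline mice.

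The effect of a treatment was compared between the sexes as the male minus the female log2 fold change, and none of the 10 genes passed an adjusted p of 0.05 in any of the 5 tests, in which 0% of genes did. Lcn2 had an unadjusted p under 0.05 in 4 of them and Saa3 in 3. For oil the difference was 2.37 ± 0.40 (SE), unadjusted p = 0.000126, adjusted p = 1 for Lcn2, 5.66 ± 1.31 (SE), unadjusted p = 0.00138, adjusted p = 1 for Saa3 and -1.43 ± 0.96 (SE), unadjusted p = 0.165, adjusted p = 1 for Bpifa1. The differences of Saa3 rest in part on female saline mouse 2, without which its female fold changes went from -2.06 to -0.51 with oil, from -4.29 to -2.73 with 9500+oil and from -3.12 to -1.55 with 9527+oil. For 9527+oil the difference was 1.79 ± 0.40 (SE), unadjusted p = 0.00107, adjusted p = 0.948 for Lcn2, 4.57 ± 1.43 (SE), unadjusted p = 0.00914, adjusted p = 0.948 for Saa3 and 1.498 ± 0.65 (SE), unadjusted p = 0.0427, adjusted p = 0.948 for Reg3g. For 9500+oil it was 1.06 ± 0.34 (SE), unadjusted p = 0.011, adjusted p = 1 for Lcn2 and 4.29 ± 1.32 (SE), unadjusted p = 0.00799, adjusted p = 1 for Saa3. For Corexit 9527 it was 1.12 ± 0.46 (SE), unadjusted p = 0.0336, adjusted p = 1 for Lcn2 and 3.24 ± 1.55 (SE), unadjusted p = 0.0627, adjusted p = 1 for Saa3. For Corexit 9500 the difference for Saa3 was 2.39, unadjusted p = 0.14, adjusted p = 1. The share of all genes with an unadjusted p under 0.05 was 1.65% for oil, 2.39% for 9527+oil, 0.509% for 9500+oil, 0.352% for Corexit 9527 and 0.726% for Corexit 9500. Without the 4 libraries with high mitochondrial shares, the difference of Lcn2 was 2.45 ± 0.41 (SE), unadjusted p = 0.000115, adjusted p = 0.762 with oil and 1.87 ± 0.37 (SE), unadjusted p = 0.000339, adjusted p = 0.714 with 9527+oil. In the same fits that of Saa3 with Corexit 9527 was 3.25 ± 1.27 (SE), unadjusted p = 0.0273, adjusted p = 0.999, that of Bpifa1 with oil -0.91, and that of Reg3g with 9527+oil 1.34 ± 0.62 (SE), unadjusted p = 0.0535, adjusted p = 0.741. For Ltf with Corexit 9500 it was 1.15 ± 0.59 (SE), unadjusted p = 0.0772, adjusted p = 1. The levels of the saline mice were not compared between the sexes by a test. Lcn2 was 216 ± 73.6 CPM (SD, n = 3) in female and 138 ± 12.1 CPM (SD, n = 3) in male saline mice, and Saa3 21.3 ± 24.6 CPM (SD, n = 3) and 2.63 ± 2.33 CPM (SD, n = 3), from tables normalized separately.

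Over both sexes with sex as a covariate, 0 of the 10 genes were called in any of the 5 comparisons, where 0.0331% of genes were called with Corexit 9527 and 0% in the other 4. Lcn2 with Corexit 9527 had a log2 fold change of 0.74 ± 0.28 (SE), unadjusted p = 0.0213, adjusted p = 1, and Saa3 with 9500+oil one of -2.11 ± 1.06 (SE), unadjusted p = 0.0721, adjusted p = 1, which was -1.22 without female saline mouse 2. Lcn2 alone had an unadjusted p under 0.05, and only with Corexit 9527, against 2.87% of genes in that comparison. Without the 4 libraries with high mitochondrial shares, Scgb3a1 with Corexit 9527 passed the threshold (log2 fold change -0.69 ± 0.14 (SE), unadjusted p = 0.000302, adjusted p = 0.0256), in a comparison in which the call count of all genes went from 5 to 343. In that fit Lcn2 stood at 0.91 ± 0.24 (SE), unadjusted p = 0.00318, adjusted p = 0.0831, Scgb1a1 at -0.41 ± 0.11 (SE), unadjusted p = 0.00261, adjusted p = 0.0748 and Scgb3a2 at -0.36 ± 0.15 (SE), unadjusted p = 0.0369, adjusted p = 0.279. Bpifa1 had an unadjusted p under 0.05 in all 5 comparisons without the 4 libraries, with -1.29 ± 0.29 (SE), unadjusted p = 0.000951, adjusted p = 1 for oil, -0.98 ± 0.25 (SE), unadjusted p = 0.00198, adjusted p = 0.627 for Corexit 9500 and -0.86 ± 0.27 (SE), unadjusted p = 0.00773, adjusted p = 0.135 for Corexit 9527. For 9500+oil it was -0.84 ± 0.31 (SE), unadjusted p = 0.0208, adjusted p = 0.699, and for 9527+oil -0.73 ± 0.24 (SE), unadjusted p = 0.0104, adjusted p = 0.387. In those fits an unadjusted p under 0.05 was found for 387 of 15335 genes with oil, 869 of 15382 with Corexit 9500 and 2397 of 15278 with Corexit 9527. With 9500+oil it was found for 1082 of 15242 genes and with 9527+oil for 1633 of 15371. Ltf was at -0.98 ± 0.32 (SE), unadjusted p = 0.0106, adjusted p = 0.77 with Corexit 9500 and at -0.82 ± 0.32 (SE), unadjusted p = 0.0235, adjusted p = 0.699 with 9500+oil. Scgb3a1 was at -0.51 ± 0.18 (SE), unadjusted p = 0.0128, adjusted p = 0.778 with Corexit 9500, and Scgb1a1 at -0.26 ± 0.11 (SE), unadjusted p = 0.032, adjusted p = 0.43 with 9527+oil. Saa3 had fold changes of 1.44 with oil, -1.75 with 9500+oil and -1.04 with 9527+oil, with unadjusted p of 0.298, 0.0826 and 0.338.

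Hp encodes haptoglobin, the plasma protein that binds free hemoglobin and is also made in the lung. Male mice had 681, 731 and 636 CPM after saline, 658, 609.8 and 754 after oil, 816, 823 and 679 after Corexit 9500, 667, 664 and 801 after Corexit 9527, 689, 677 and 816 after 9500+oil and 638, 811 and 775 after 9527+oil. All 18 male values lay between 609.8 and 823 CPM, and no male comparison gave Hp an unadjusted p under 0.05. Female mice had 620.4, 626 and 80.4 CPM after saline, 482, 708 and 274 after oil, 581, 554 and 651 after Corexit 9500, 554, 76.4 and 479.7 after Corexit 9527, 717, 233 and 504 after 9500+oil and 611, 623 and 523 after 9527+oil. The 4 lowest female values, from 76.4 to 274 CPM, were those of the 4 libraries with high mitochondrial shares, and the other 14 lay between 480 and 717 CPM. With or without those 4 libraries, no female comparison gave Hp an unadjusted p under 0.05.

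Ltf encodes lactoferrin, an iron-binding protein of neutrophil granules and of airway glands. In male mice it stood at 42.5, 33.3 and 16.8 CPM after saline, 20.6, 27 and 20.8 after oil, 18.1, 25.8 and 23.2 after Corexit 9500, 28.3, 17.7 and 10.2 after Corexit 9527, 18.7, 12.8 and 26 after 9500+oil and 9.39, 34.3 and 26.2 after 9527+oil. Each treated group overlapped with saline. In female mice it stood at 39.9, 92.6 and 8.44 CPM after saline, 33, 80.9 and 68.2 after oil, 13.3, 27.8 and 24 after Corexit 9500, 52.1, 11 and 58.7 after Corexit 9527, 44.2, 35.6 and 20.3 after 9500+oil and 22, 39 and 37.4 after 9527+oil. With Corexit 9500 the female log2 fold change was -1.12 ± 0.80 (SE), unadjusted p = 0.208, adjusted p = 1. Without the libraries with high mitochondrial shares it was -1.61 ± 0.45 (SE), unadjusted p = 0.011, adjusted p = 1, and without saline mouse 2 it was -0.16. The fits without those libraries also gave -1.03 ± 0.47 (SE), unadjusted p = 0.0677, adjusted p = 1 with 9500+oil and -1.02 ± 0.35 (SE), unadjusted p = 0.0217, adjusted p = 0.355 with 9527+oil.

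Of the secretoglobins, Scgb1a1 (CC10), the most abundant secreted protein of club cells, stood at 16140, 17540 and 21140 CPM after saline, 16500, 17740 and 14700 after oil, 14560, 13500 and 18450 after Corexit 9500, 12270, 14820 and 14320 after Corexit 9527, 18350, 16950 and 17890 after 9500+oil and 15650, 19040 and 16490 after 9527+oil in male mice. Every Corexit 9527 male was below every saline male, and the log2 fold change was -0.40 ± 0.14 (SE), unadjusted p = 0.018, adjusted p = 0.247. The male values of Scgb3a1, expressed in secretory cells of the larger airways, were 160.0, 168 and 138 CPM after saline, 138, 184 and 76 after oil, 90.8, 131 and 150.5 after Corexit 9500, 118, 90.9 and 105 after Corexit 9527, 167, 130.4 and 204 after 9500+oil and 90.0, 247 and 251 after 9527+oil. Its Corexit 9527 mice were also all below the saline mice, with a log2 fold change of -0.57 ± 0.12 (SE), unadjusted p = 0.00158, adjusted p = 0.116. In the 9527+oil group mouse 16 had 90.0 CPM of Scgb3a1 while mice 17 and 18 were above every saline mouse. Scgb3a2, a secretoglobin of the smaller airways that binds the scavenger receptor Marco, stood at 394, 338 and 448 CPM after saline, 339, 397 and 262 after oil, 320.0, 312 and 452 after Corexit 9500, 323, 324 and 423 after Corexit 9527, 372, 376 and 369 after 9500+oil and 542, 421 and 353 after 9527+oil, and overlapped with saline in each group. In male mice none of the 3 secretoglobins had an unadjusted p under 0.05 with oil, Corexit 9500, 9500+oil or 9527+oil.

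Female mice had 16400, 14700 and 6218 CPM after saline, 17460, 17110 and 22830 after oil, 24760, 9429 and 10320 after Corexit 9500, 10340, 7746 and 12840 after Corexit 9527, 15520, 18240 and 10180 after 9500+oil and 12270, 9544 and 12140 after 9527+oil of Scgb1a1. All oil females were above all saline females, as were 2.89% of genes, but saline mouse 3, with a high mitochondrial share, was at 6218 CPM, and the log2 fold change had an unadjusted p of 0.349. Scgb3a1 stood at 155, 251 and 9.84 CPM after saline, 117, 208 and 56.3 after oil, 135, 134 and 92.7 after Corexit 9500, 113, 14.3 and 106 after Corexit 9527, 246, 48.2 and 111 after 9500+oil and 137, 149 and 183 after 9527+oil. Its 4 lowest values, from 9.84 to 56.3 CPM, belonged to the 4 libraries with high mitochondrial shares. Scgb3a2 stood at 636, 491 and 194 CPM after saline, 565, 626 and 740.4 after oil, 517, 398 and 369 after Corexit 9500, 297, 252 and 407 after Corexit 9527, 565, 454 and 387 after 9500+oil and 495, 354 and 454 after 9527+oil. Without those libraries, Corexit 9527 females had log2 fold changes of -0.88 ± 0.25 (SE), unadjusted p = 0.0111, adjusted p = 0.787 for Scgb3a1 and -0.67 ± 0.23 (SE), unadjusted p = 0.0256, adjusted p = 0.948 for Scgb3a2. Corexit 9500 females had -0.75 ± 0.29 (SE), unadjusted p = 0.0384, adjusted p = 1 for Scgb3a1. The same fit for 9527+oil gave -0.45 ± 0.15 (SE), unadjusted p = 0.0153, adjusted p = 0.342 for Scgb1a1.

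Bpifa1, an airway surface protein that limits sodium channel activity and binds bacterial lipids, had a lower mean than in saline mice in males under all 5 treatments. Male saline mice had 424, 234 and 166 CPM and oil mice 72.3, 109 and 81.1 CPM, with no overlap and a log2 fold change of -1.66 ± 0.32 (SE), unadjusted p = 0.000703, adjusted p = 0.236. The Corexit 9500 males had 157, 103 and 189 CPM, the Corexit 9527 males 212, 115 and 114 CPM, the 9500+oil males 144, 91.2 and 186 CPM and the 9527+oil males 135, 156 and 198 CPM, and each of these groups overlapped with saline. The log2 fold changes were -0.88 ± 0.33 (SE), unadjusted p = 0.027, adjusted p = 0.782 with Corexit 9500, -0.90 ± 0.36 (SE), unadjusted p = 0.0338, adjusted p = 0.312 with Corexit 9527, -0.97 ± 0.34 (SE), unadjusted p = 0.0203, adjusted p = 0.506 with 9500+oil and -0.76 ± 0.31 (SE), unadjusted p = 0.0397, adjusted p = 0.885 with 9527+oil. Saline mouse 1 was the highest of the 18 males. Without it the values were -1.19 for oil, -0.42 for Corexit 9500, -0.44 for Corexit 9527, -0.51 for 9500+oil and -0.29 for 9527+oil. In female mice Bpifa1 stood at 184, 326 and 23.7 CPM after saline, 128, 176 and 150.1 after oil, 98.2, 136 and 119 after Corexit 9500, 155, 24.1 and 137 after Corexit 9527, 233, 95.9 and 89.8 after 9500+oil and 101, 190.1 and 179 after 9527+oil, and no comparison had an unadjusted p under 0.05. Saline mouse 3 and Corexit 9527 mouse 11, at 23.7 and 24.2 CPM, have the highest mitochondrial shares. Without the 4 such libraries all 5 female fold changes were negative, with -1.12 ± 0.29 (SE), unadjusted p = 0.00845, adjusted p = 1 for Corexit 9500 and -0.80 ± 0.29 (SE), unadjusted p = 0.0282, adjusted p = 0.954 for Corexit 9527.

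Bpifb1, the longer BPI-fold relative that neighbours Bpifa1 on chromosome 2, had another order of groups. Male mice had 149, 117 and 148 CPM after saline, 227, 178 and 99.4 after oil, 113, 185 and 162 after Corexit 9500, 168, 233 and 202 after Corexit 9527, 129, 93.3 and 154 after 9500+oil and 106, 136 and 179 after 9527+oil. The Corexit 9527 males were all above the saline males, with a log2 fold change of 0.54 ± 0.15 (SE), unadjusted p = 0.00543, adjusted p = 0.167, while Bpifa1 in the same mice overlapped with saline. Female mice had 199.6, 427 and 119 CPM after saline, 207, 229.8 and 193 after oil, 417, 234 and 187 after Corexit 9500, 391, 136 and 262 after Corexit 9527, 239.8, 150.1 and 164 after 9500+oil and 186, 182 and 259.6 after 9527+oil. Saline mouse 2, Corexit 9500 mouse 7 and Corexit 9527 mouse 10 were the 3 highest females, at 427, 417 and 391 CPM. No female comparison gave Bpifb1 an unadjusted p under 0.05, with or without the 4 libraries with high mitochondrial shares.

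Reg3g, a C-type lectin that kills Gram-positive bacteria and is induced by interleukin-22 and interleukin-17, stood at 47.2, 34.2 and 24.7 CPM after saline, 47.7, 40.4 and 23.4 after oil, 22.2, 50.3 and 38.6 after Corexit 9500, 44.6, 54.9 and 34.6 after Corexit 9527, 26.1, 21.1 and 51 after 9500+oil and 23.8, 49.7 and 53.8 after 9527+oil in male mice, with overlap in every comparison. Female mice had 29.6, 104 and 90.2 CPM after saline, 41.6, 53.6 and 47.9 after oil, 98.5, 35 and 32.2 after Corexit 9500, 70.8, 71.7 and 48 after Corexit 9527, 48.1, 76.8 and 33 after 9500+oil and 28, 28.6 and 38.2 after 9527+oil. The log2 fold change with 9527+oil in females was -1.25 ± 0.50 (SE), unadjusted p = 0.0456, adjusted p = 0.914, and without the libraries with high mitochondrial shares it was -1.07 ± 0.43 (SE), unadjusted p = 0.0384, adjusted p = 0.391. Its highest female value was that of saline mouse 2, which was also the highest saline female in each of the other genes except Scgb1a1 and Scgb3a2.

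**Figure D3:**
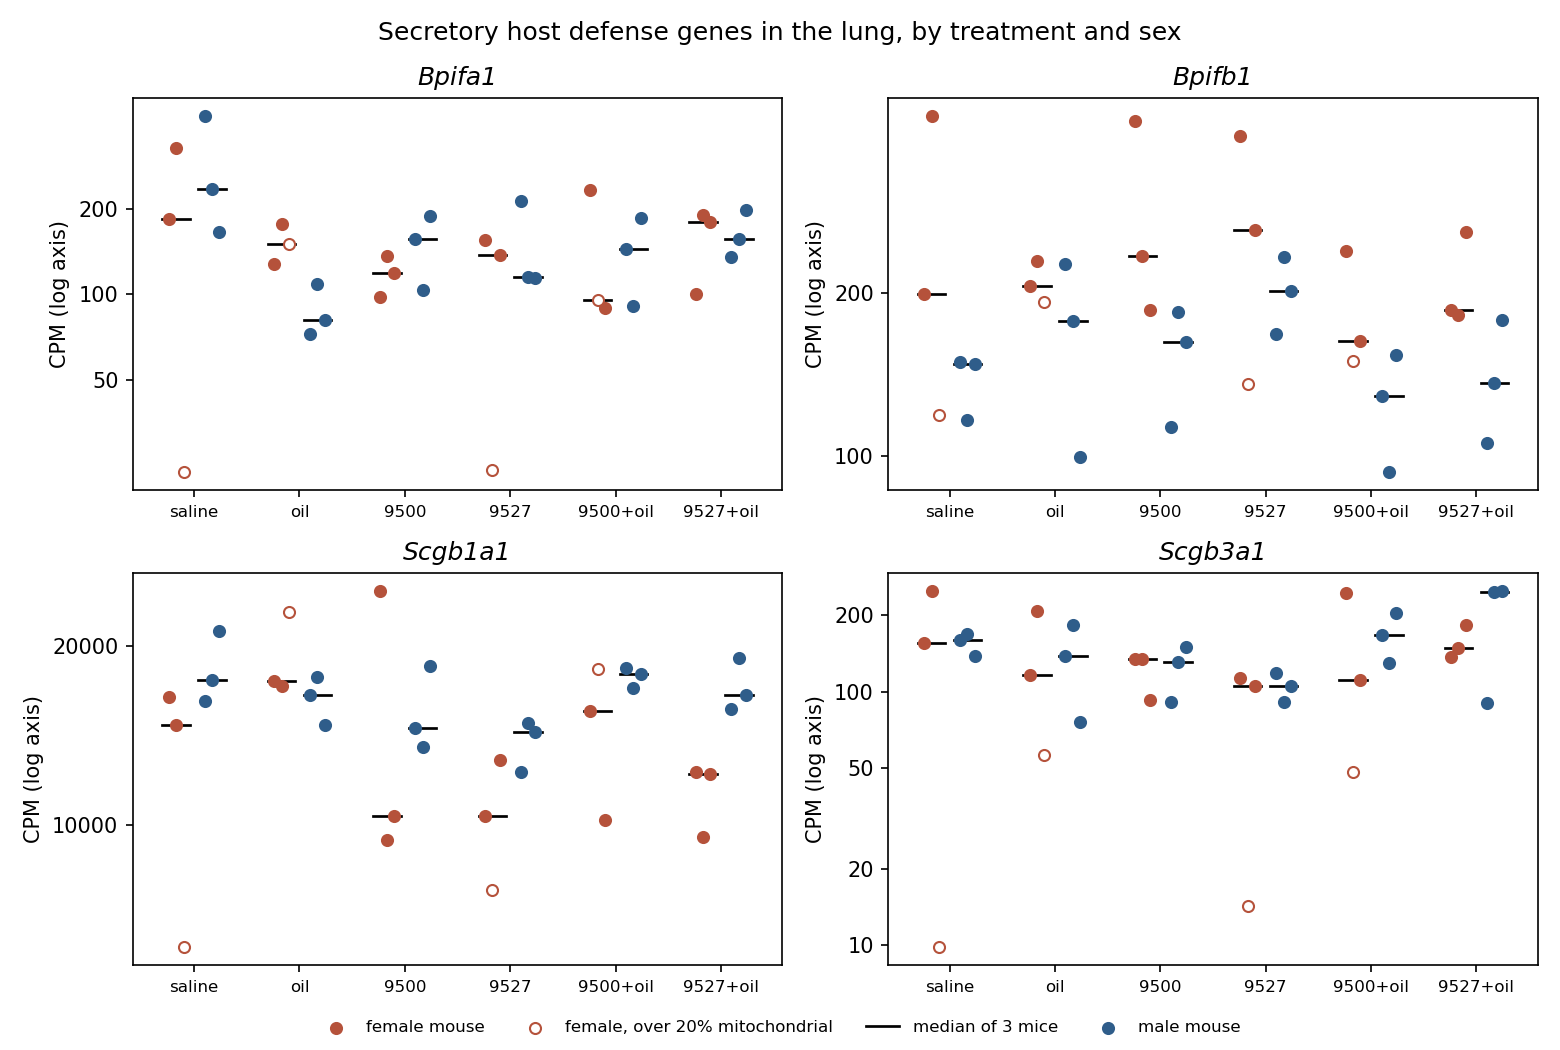
Bpifa1, Bpifb1, Scgb1a1 and Scgb3a1 in CPM on log axes for each mouse, by treatment; red points are female and blue points male mice, open points the female libraries with over 20% mitochondrial counts, and black lines the median of 3 mice. The 3 male oil mice lie below all male saline mice in Bpifa1, and 2 open points stand far below the other females in Bpifa1 and Scgb3a1.

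Other acute phase genes were examined as a list of 29, of which 26 were listed in either table. In male mice 8 of the 20 tested with oil were higher with an unadjusted p under 0.05, against 5.75% of all genes, and none was lower. None passed an adjusted p of 0.05. The median log2 fold change of the list was 0.46, against -0.01 for all genes. Serpina3n, a serine protease inhibitor, had a log2 fold change of 0.95 ± 0.16 (SE), unadjusted p = 0.000322, adjusted p = 0.182, and Itih4, a hyaluronan-associated plasma protein, one of 0.64 ± 0.13 (SE), unadjusted p = 0.00111, adjusted p = 0.256. With Corexit 9527 in male mice 8 of 21 were higher with an unadjusted p under 0.05 (7.96% of all genes), with a median of 0.58 against -0.01. Serpina3n was at 1.16 ± 0.19 (SE), unadjusted p = 0.000191, adjusted p = 0.0558 and Lrg1, a leucine-rich glycoprotein, at 1.32 ± 0.21 (SE), unadjusted p = 0.000207, adjusted p = 0.0558. The counts were 2 of 20 with Corexit 9500, 1 of 19 with 9500+oil and 3 of 20 with 9527+oil, against 4%, 5.19% and 3.54% of genes. In female mice none of the list had an unadjusted p under 0.05 in any of the 5 comparisons, where 0.108% to 1.1% of all genes had one. The list was not tested without the 4 libraries with high mitochondrial shares.

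Upstream signals and regulators of these genes, a list of 30 cytokines, receptors and transcription factors of which 29 were listed, had 25 members tested in each male comparison, and none was called. Those higher at an unadjusted p under 0.05 in male mice numbered 3 for oil, 2 for Corexit 9500, 6 for Corexit 9527, 4 for 9500+oil and 5 for 9527+oil, against 5.75%, 4%, 7.96%, 5.19% and 3.54% of all genes, and none was lower. Cebpb, the C/EBP factor of the acute phase response, had 28.5, 24.1 and 26.5 CPM in male saline mice, 32.3, 32.1 and 40.8 CPM in oil mice, 39.3, 64 and 35.8 CPM in 9500+oil mice and 86.5, 37.8 and 34.4 CPM in 9527+oil mice. In these treated groups Cebpb was above saline in every mouse, as were 7.42% of genes with oil and 5.92% with 9527+oil. Its log2 fold change was 0.41 ± 0.13 (SE), unadjusted p = 0.0116, adjusted p = 0.417 with oil, 0.81 ± 0.21 (SE), unadjusted p = 0.00344, adjusted p = 0.506 with 9500+oil and 1.00 ± 0.33 (SE), unadjusted p = 0.0145, adjusted p = 0.885 with 9527+oil. With Corexit 9527 the 2 smallest p values were those of Il1r1, the interleukin-1 receptor, at 0.34 ± 0.10 (SE), unadjusted p = 0.00778, adjusted p = 0.182, and Socs3, a feedback inhibitor of STAT3 signaling, at 0.57 ± 0.21 (SE), unadjusted p = 0.0223, adjusted p = 0.267. With oil the second was Tnf at 0.97 ± 0.37 (SE), unadjusted p = 0.0304, adjusted p = 0.531. In the female comparisons 1 of the 25 had an unadjusted p under 0.05, Cebpd with Corexit 9500 at 0.73 ± 0.29 (SE), unadjusted p = 0.042, adjusted p = 1, where 0.364% of all genes had one.

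Receptors and uptake proteins formed a list of 14, of which 13 were tested in each male comparison. With Corexit 9527, 5 were higher at an unadjusted p under 0.05 (7.96% of all genes), and the 2 with the smallest p were Lrp2 (megalin, an endocytic receptor of lipocalin 2) at 0.83 ± 0.13 (SE), unadjusted p = 0.000196, adjusted p = 0.0558 and Marco, a macrophage scavenger receptor, at 1.46 ± 0.31 (SE), unadjusted p = 0.00116, adjusted p = 0.106. Marco was at 1.93 ± 0.40 (SE), unadjusted p = 0.00111, adjusted p = 0.256 with oil and at 1.36 ± 0.33 (SE), unadjusted p = 0.00299, adjusted p = 0.885 with 9527+oil. The counts were 1 higher with oil (5.75% of all genes), 1 higher with 9527+oil (3.54%), 1 higher and 1 lower with Corexit 9500 (4% and 2.36%), and 0 with 9500+oil (9.22% in either direction). None of these passed an adjusted p of 0.05.

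The other secretory host defense genes, formed a list of 35, of which 18 were listed and 13 or 14 tested. In male mice 3 of 14 were higher with oil at an unadjusted p under 0.05 (5.75% of all genes), 2 of 13 with Corexit 9527 (7.96%), and 1 of 13 each with Corexit 9500 (4%) and 9527+oil (3.54%). Lower were 1 with Corexit 9500 (2.36% of all genes) and 2 with 9500+oil (4.04%). Pigr, the receptor that carries polymeric immunoglobulin across the epithelium, had 83.4, 83.3 and 65.1 CPM in male saline mice and 231, 105 and 119.5 CPM in oil mice, with a log2 fold change of 0.97 ± 0.28 (SE), unadjusted p = 0.00764, adjusted p = 0.374, and Pglyrp1, a peptidoglycan recognition protein, one of 0.44 ± 0.16 (SE), unadjusted p = 0.0277, adjusted p = 0.523. In female mice Pigr was at -1.02 ± 0.36 (SE), unadjusted p = 0.0282, adjusted p = 1 with 9500+oil, the 1 gene of the list with an unadjusted p under 0.05 in any female comparison, where 0.155% of all genes had one with 9500+oil.

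Of the markers of neutrophils, macrophages, airway epithelial cells and alveolar type 2 cells, 1 gene (the macrophage marker Cd68) was called in any comparison of 1 sex with saline. Neutrophils carry Ltf and Lcn2 in their granules. The 15 of 16 neutrophil markers listed in the male table summed to 318 to 329 CPM in saline, 403 to 1159 CPM in oil, 194 to 448 CPM in Corexit 9500, 129.9 to 295 CPM in Corexit 9527, 301 to 936 CPM in 9500+oil and 281 to 1474 CPM in 9527+oil mice. With 9527+oil 10 of 12 tested were higher at an unadjusted p under 0.05 (3.54% of all genes) and 1 was lower (2%), with a list median of 1.55 and the smallest p for Csf3r, the granulocyte colony-stimulating factor receptor, at 1.54 ± 0.40 (SE), unadjusted p = 0.00447, adjusted p = 0.885, and the gelatinase gene Mmp9, at 1.23 ± 0.37 (SE), unadjusted p = 0.0103, adjusted p = 0.885. With oil 7 of 13 were higher (5.75% of all genes), with a median of 1.01, Mmp9 at 1.24 ± 0.25 (SE), unadjusted p = 0.00108, adjusted p = 0.256 and S100a8, a calprotectin subunit, at 1.25 ± 0.38 (SE), unadjusted p = 0.0101, adjusted p = 0.409. With Corexit 9527 none of 11 was higher (7.96% of all genes) and 1 was lower (5.78%), the median was -0.37, and the granule gene Ngp was at -2.31 ± 0.76 (SE), unadjusted p = 0.0145, adjusted p = 0.231. With Corexit 9500 none of 12 was higher (4% of all genes) and 1 lower (2.36%), and with 9500+oil 1 was higher (5.19%) and 1 lower (4.04%). The summed level of every Corexit 9527 male, the group with the Lcn2 call, was below that of every saline male. That of every oil male, the group with the highest mean of Lcn2, was above that of every saline male. Ltf, itself a neutrophil granule gene, overlapped with saline in every male group, and the granule genes Camp and Ngp were at most 1.42 and 19.99 CPM in any mouse. In the female table all 16 markers were listed and summed to 157 to 251 CPM with saline and 75.4 to 261 CPM in the treated mice.

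Summed macrophage markers were above the saline range in every oil and Corexit 9527 male. The 11 of 12 markers listed summed to 787 to 922 CPM in saline, 1154 to 1334 CPM in oil, 1047 to 1833 CPM in Corexit 9527, 864 to 1148 CPM in Corexit 9500, 732 to 950.0 CPM in 9500+oil and 714 to 1011 CPM in 9527+oil mice. With Corexit 9527, 7 of the 11 were higher at an unadjusted p under 0.05 (7.96% of all genes), and Cd68, a lysosomal glycoprotein, rose on the log2 scale by 0.83 ± 0.11 (SE), unadjusted p = 5.33e-05, adjusted p = 0.0468. No gene was called in that comparison without saline mouse 2 or without saline mouse 3, so the Cd68 call was lost in these fits. With oil 8 of 11 were higher (5.75% of all genes) and 1 lower (2.45%), with Cd68 at 1.00 ± 0.16 (SE), unadjusted p = 0.000223, adjusted p = 0.169, and the complement gene C1qb at 1.10 ± 0.19 (SE), unadjusted p = 0.000357, adjusted p = 0.184. The counts were 5 higher and 1 lower with 9527+oil (3.54% and 2% of all genes), 4 higher with Corexit 9500 (4%) and 1 higher with 9500+oil (5.19%). In female mice the sums were 841 to 914 CPM in saline, 696 to 1160 CPM in oil, 834 to 1548 CPM in Corexit 9500, 1324 to 2384 CPM in Corexit 9527, 623 to 803 CPM in 9500+oil and 556 to 621 CPM in 9527+oil mice. Those of Corexit 9527 were thus all above saline, where Lcn2 had an unadjusted p of 0.687, and those of 9500+oil and 9527+oil all below it, where Lcn2 was also below saline in every mouse. With oil, Lcn2 was likewise narrowly below saline in every mouse, while the macrophage sums overlapped with saline. Of the 11 markers in female mice, 1 was higher at an unadjusted p under 0.05 with oil (0.0472% of all genes), 1 with Corexit 9500 (0.155%) and 1 with Corexit 9527 (0.247%), and 2 were lower with 9527+oil (0.861%). The part of neutrophils and macrophages in the levels of Lcn2 and Saa3 was not tested.

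Alveolar type 2 cells make surfactant and can also express acute phase genes. Their 10 markers summed to 20300 to 20610 CPM in male saline, 19040 to 20570 CPM in oil, 19380 to 21980 CPM in Corexit 9500, 20070 to 25930 CPM in Corexit 9527, 18460 to 24570 CPM in 9500+oil and 16860 to 21350 CPM in 9527+oil mice. The oil mice overlapped with saline, and so did the Corexit 9527 mice, the group with the Lcn2 call. In that group the log2 fold changes of all 10 were above 0, and 5 of them had an unadjusted p under 0.05 (7.96% of all genes higher), with a median of 0.30 against -0.01 for all genes. The smallest p were those of the chemokine gene Cxcl15 at 0.65 ± 0.11 (SE), unadjusted p = 0.000198, adjusted p = 0.0558, and of Lamp3, a lamellar body protein, at 0.59 ± 0.10 (SE), unadjusted p = 2e-04, adjusted p = 0.0558. With each of the other 4 treatments 1 of the 10 was higher at an unadjusted p under 0.05 in male mice (5.75% of all genes for oil, 4% for Corexit 9500, 5.19% for 9500+oil and 3.54% for 9527+oil) and none was lower. In female mice none had such a p in any comparison, where 0.108% to 1.1% of all genes had one. The part of alveolar type 2 cells in the level of Lcn2 was not tested.

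Markers of the airway epithelium give the setting for the secretoglobins and BPI-fold genes. The 16 club cell markers other than the secretoglobins summed to 8596 to 9970 CPM in male saline, 7920 to 8543 CPM in oil, 7892 to 10480 CPM in Corexit 9500, 6860 to 9921 CPM in Corexit 9527, 9040 to 10270 CPM in 9500+oil and 9853 to 10230 CPM in 9527+oil mice. With oil 4 of the 16 were lower (2.45% of all genes) and 1 higher (5.75%) at an unadjusted p under 0.05, with the smallest p for Cyp2f2, a club cell cytochrome, at -0.39 ± 0.08 (SE), unadjusted p = 0.00161, adjusted p = 0.275. Retnla, a secreted protein also made in type 2 immune responses, was at 3.33 ± 0.78 (SE), unadjusted p = 0.00246, adjusted p = 0.319 with oil and at 4.02 ± 0.59 (SE), unadjusted p = 9.98e-05, adjusted p = 0.0558 with Corexit 9527, where it was the 1 gene of the list with an unadjusted p under 0.05. With 9527+oil 3 of the 16 club cell markers were higher (3.54% of all genes), with Corexit 9500 2 were (4%), and with 9500+oil 1 was higher (5.19%) and 1 lower (4.04%). In female mice 1 of the 16 had an unadjusted p under 0.05, and was lower with 9527+oil (0.861% of all genes). With Corexit 9527, 7 of 13 ciliated cell markers were lower at an unadjusted p under 0.05 (5.78% of all genes), the list median was -0.31, the smallest p were those of the dynein gene Dnah9 at -0.41 ± 0.10 (SE), unadjusted p = 0.00289, adjusted p = 0.144 and of Hydin, a central pair protein, at -0.38 ± 0.10 (SE), unadjusted p = 0.00482, adjusted p = 0.165, and the summed level was 598 to 730.0 CPM against 754 to 872 CPM with saline. Goblet cell markers summed to 291 to 340.0 CPM in male saline mice and were above that range in every male mouse of the 5 treated groups except 9527+oil mouse 16, at 338 CPM. With Corexit 9500, 6 of 10 were higher at an unadjusted p under 0.05 (4% of all genes), and with Corexit 9527 also 6 of 10 (7.96%), and Muc5ac, the inducible airway mucin, was at 2.14 ± 0.48 (SE), unadjusted p = 0.00157, adjusted p = 0.617 with the first and at 2.62 ± 0.40 (SE), unadjusted p = 0.000134, adjusted p = 0.0558 with the second. The second gene by p was the mucin Muc5b with Corexit 9500, at 0.92 ± 0.28 (SE), unadjusted p = 0.0103, adjusted p = 0.755, and the mucin-like Fcgbp with Corexit 9527, at 2.11 ± 0.36 (SE), unadjusted p = 0.000307, adjusted p = 0.0619. The goblet counts were 3 with oil (5.75% of all genes), 2 with 9500+oil (5.19%) and 3 with 9527+oil (3.54%). In female mice goblet cell markers summed to 242 to 621 CPM with saline, 224 to 360.1 CPM with oil, 348 to 621 CPM with Corexit 9500, 438 to 661 CPM with Corexit 9527, 239 to 376 CPM with 9500+oil and 345 to 407 CPM with 9527+oil, so each treated group overlapped with saline. Here 3 of 10 were lower at an unadjusted p under 0.05 with 9527+oil (0.861% of all genes), 2 with 9500+oil (0.142%) and 1 with oil (0.0607%). The list medians were -0.68, -0.47 and -0.46 in these 3. No goblet cell marker was higher at such a p in any female comparison, where 0.108% to 1.1% of all genes had one in either direction. The part of the cell makeup in the lower Scgb1a1, Scgb3a1 and Bpifa1 values was not tested.

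All 8 liver markers, which would mark liver RNA, were listed in the male table and summed to 9.6 to 10.5 CPM in male saline mice and to at most 31.5 CPM in any mouse, the highest being a Corexit 9527 male. Of the 13 markers of upper airway, thyroid, thymus and heart, 11 were listed in the male table, and they summed to 165 to 290.1 CPM in male saline and 119.7 to 171 CPM in male oil mice. With oil 4 of the 6 tested were lower at an unadjusted p under 0.05 (2.45% of all genes), with a median of -0.62, led by the amylase gene Amy1 at -0.87 ± 0.21 (SE), unadjusted p = 0.003, adjusted p = 0.319 and the atrial peptide gene Nppa at -1.34 ± 0.35 (SE), unadjusted p = 0.00443, adjusted p = 0.334. With 9500+oil and with Corexit 9527, 1 of the 6 each was lower (4.04% and 5.78% of all genes). Their part in the lower Bpifa1 of the male oil mice was not tested.

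Pearson's r of at least 0.7 in size was found across the mice for 6 of the 45 pairs of the 10 genes in the female table, for 2 of 45 in the male table, and for 7 of 45 over the 14 females without high mitochondrial shares. The correlations are of log2 CPM over 18 mice a table, which share treatments, libraries and depth. Lcn2 and Saa3 had Pearson's r of 0.759 in female and 0.868 in male mice (Spearman's rho 0.736 and 0.798), and r of 0.871 and 0.648 with the group means removed. Leaving out the 2 mice farthest from the median of Lcn2 gave 0.713 and 0.818. Bpifb1 and Reg3g had r of 0.773 in male mice and 0.297 in female mice, and 0.932 over the 14 females without high mitochondrial shares. Lcn2 and Bpifa1 had r of -0.629 in male mice and 0.00304 in female mice, and of -0.28 and 0.288 with the group means removed. Hp and Scgb3a1 had r of 0.964 in female mice and 0.578 over the 14 females without high mitochondrial shares, while in male mice it was 0.137. Hp and Bpifa1 had r of 0.87 in female mice, 0.448 over those 14 and 0.0399 in male mice, and leaving out the 2 females farthest from the median of Hp gave 0.394. Scgb3a1 and Bpifa1 had r of 0.917, 0.785 and 0.401 in the same order, Scgb1a1 and Scgb3a2 0.882, 0.783 and 0.501, and Ltf and Bpifa1 0.849, 0.806 and 0.548. Over the 14 females Lcn2 had r of 0.738 with Bpifb1 and 0.73 with Reg3g, against 0.587 and 0.586 over all 18 and 0.516 and 0.536 without the 2 of those 14 farthest from the median of Lcn2.

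**Figure D4:**
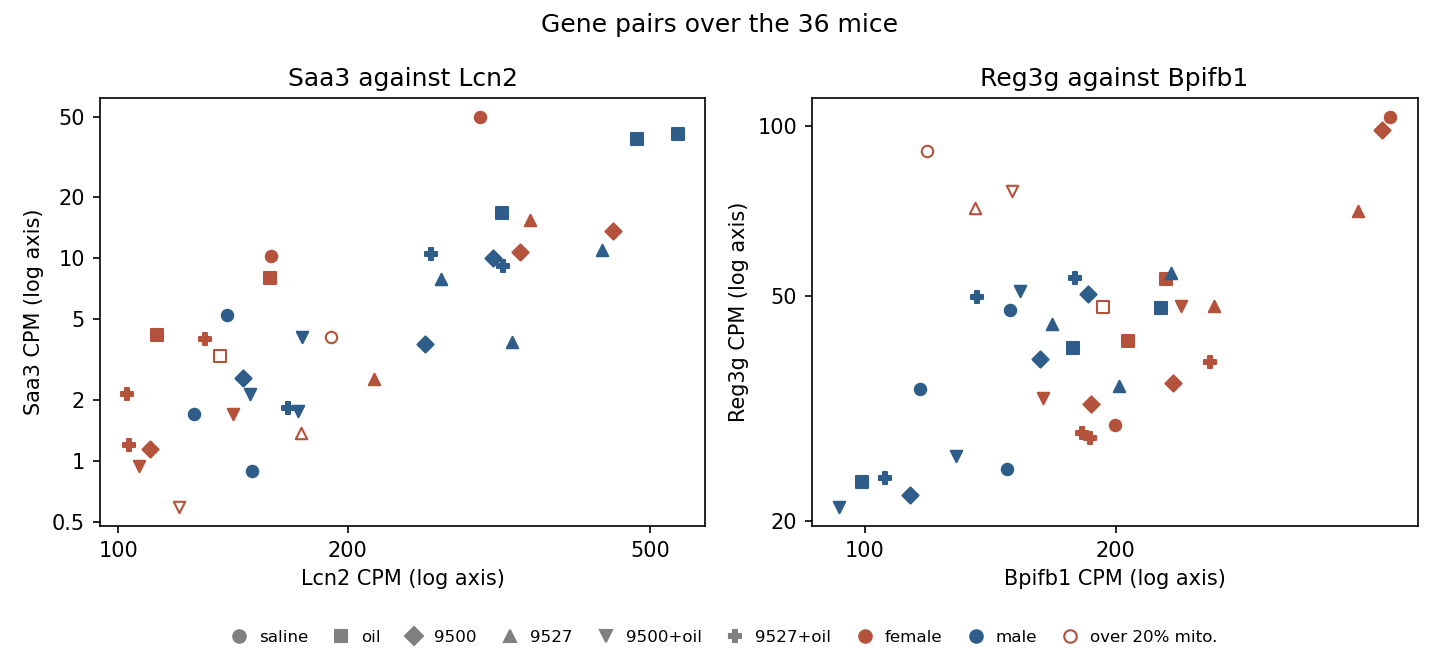
Saa3 against Lcn2 (left) and Reg3g against Bpifb1 (right) in CPM on log axes, 1 point per mouse; marker shapes give the treatment, red is female, blue is male, and open points are the female libraries with over 20% mitochondrial counts. Saa3 follows Lcn2 in both sexes, and in the right panel 3 of the 4 open points lie above the trend of the other mice.

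Among 12710 genes with a mean of at least 1 log2 CPM in both tables, the 3 most like Lcn2 over the mice were Serpina3n (r of 0.859 in female and 0.882 in male mice), F10 (0.829 and 0.826) and Tnfrsf9 (0.808 and 0.885). Serpina3n stood at 176, 185 and 144 CPM after saline, 363, 249.6 and 367 after oil, 319.7, 355 and 205 after Corexit 9500, 310.0, 492 and 327 after Corexit 9527, 170.3, 192 and 263 after 9500+oil and 178, 249 and 252 after 9527+oil in male mice. Those most like Scgb1a1 were Lrrc48 (0.898 and 0.777), Gstk1 (0.722 and 0.722) and Tspan7 (0.756 and 0.717). Those most like Bpifa1 were Hadhb (0.841 and 0.882), Jam3 (0.818 and 0.844) and Cfd (0.855 and 0.788). The female values include the 4 libraries with high mitochondrial shares.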

How the data were processed

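RNA of 36 mouse lungs, 18 per sex, was examined. According to the study's methods the reads were quantified with Salmon (version not given in the sources used here) against GRCm38. The authors deposited 1 table of estimated counts per gene for each sex, in which every value was a whole number and every row summed to at least 10. Rows with repeated gene names, 4 per table, were left out (0.0103% and 0.0128% of the counts). Total counts per mouse, 17501180 to 30011557, set the counting precision.

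The genes and gene lists were chosen with earlier results of these data known. Groups followed the labels. Each treatment was compared with saline within a table, over both sexes with sex as a covariate, and between the sexes by an interaction term, using edgeR's quasi-likelihood test (edgeR 4.0.16, R 4.3.3) with TMM scaling and the tool's default filter for low counts, and p-values were adjusted by Benjamini and Hochberg's method across every gene tested. A fold change with its SE is on the log2 scale, and the SE was derived from the fold change and the F statistic of its test. The p-values judge a group difference against the spread between mice, moderated across genes. CPM used TMM-scaled library sizes, and log2 CPM a prior count of 2. All 10 genes are given, with a fold change where the unadjusted p was under 0.05 or the change at least 1. Genes of other lists are named where called, or as the 2 with the smallest p. Alternatives were DESeq2 1.42.0, other scalings and filters, GC offsets, all groups in 1 fit, and leaving out mice. The edgeR fit of oil against saline within each sex was also run on simulated counts, whose results are not given here. Gene models were from GENCODE M21 (95.29% of 18693 names matched) and promoters from RefSeq.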

Additional observations from a re-analysis of the deposited data

Results flagged for a closer look

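In 2 comparisons every treated male was above and every treated female below all saline mice of its sex in Lcn2. The share of all genes above saline in every treated male was 7.42% with oil and 5.92% with 9527+oil, and that of genes below saline in every treated female 1.02% and 7.2%. The female oil side was narrow, with oil mouse 5 at 158.2 CPM and saline mouse 1 at 158.6 CPM and a log2 fold change of -0.72 ± 0.35 (SE), unadjusted p = 0.0817, adjusted p = 1. With oil, the male minus female difference of the log2 fold changes was 2.37 ± 0.40 (SE), unadjusted p = 0.000126, adjusted p = 1. With 9527+oil the difference was 1.79 ± 0.40 (SE), unadjusted p = 0.00107, adjusted p = 0.948. The fold changes also had opposite signs with 9500+oil, where the male groups overlapped. None of these differences passed the adjustment over all genes in edgeR's quasi-likelihood test, and whether the sexes were dosed or sequenced together is not given.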

How the results depend on the processing

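Of the counts of called genes among the 10, those of the female comparisons were 0 under every setting tried, while male ones depended on the tool. DESeq2's Wald test called 3 of the 10 with oil, 3 with Corexit 9527 and 1 with 9527+oil in male mice, and its likelihood ratio test over the 6 male groups called 2, against 0, 1, 0 and 0 in edgeR's quasi-likelihood test. For male oil the count was 1 with no filter on low counts, 1 with at least 10 counts required in every mouse and 1 with GC offsets. Over both sexes it was 1 for Corexit 9527 without the 4 libraries with high mitochondrial shares. Leaving out 1 mouse at a time gave 0 to 1 calls in the male oil, Corexit 9527 and 9527+oil comparisons. Saa3 with Corexit 9500 in female mice ranged from -1.84 to 0.24 with 1 mouse left out, and turned without saline mouse 2. The cause of these changes was not tested. Calls over all genes also depended on the setting: with Corexit 9527 in male mice they were 17, against 587 with DESeq2, 284 with all 6 groups in 1 fit, 89 with at least 10 counts in every mouse, 70 with no filter and 47 with GC offsets; with oil in male mice they were 1, against 186 with DESeq2. Of the fold changes, 237 of the values under other settings kept their direction and side of the threshold and 9 passed it. With 1 mouse left out 173 did so, 2 passed it, 4 (all Lcn2 with Corexit 9527 in male mice) no longer passed it and 1 turned. No paired analysis was possible because the groups compared within a table share no mouse numbers. With 3 mice a group, the female fits without the 4 libraries leave 2 mice in some groups.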
